A study of Rattus norvegicus with 9 samples.

Results

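Apod, Ecel1, Sparcl1, Abcg3l3, Adamts2, Stac2 and Sarm1 are 7 genes whose array levels were lower in Schwann cells grown out of skin-derived precursors (SKPs) than in Schwann cells of the sciatic nerve. They were selected on their log2 levels in these same SKP-derived and nerve arrays, and found here by gene symbol among 14506 genes measured by features that name 1 gene. Each has 1 such feature, so 7 of 15310 features were used. All cells came from adult Sprague Dawley rats and were cultured. SKP-derived Schwann cells were grown from dorsal trunk SKPs in Schwann cell growth medium, passaged once, grown to confluence and collected. Nerve Schwann cells were freed from sciatic nerve by enzymes and grown and collected in the same way. SKPs are sphere-forming cells of the skin, kept in conditions that promote proliferation and collected after 1 or 2 passages. Each group has 3 samples that the series calls independent, hybridised to 9 Affymetrix Rat Gene 1.0 ST arrays. The series asks whether skin precursors can give rise to Schwann cells.

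Schwann cells are the glia of peripheral nerve. They ensheathe axons, and after injury they clear debris and secrete matrix and signals on which axons regrow. The 7 genes do not form 1 pathway. Apod and Sparcl1 encode secreted proteins of glia and connective tissue, Ecel1 and Adamts2 encode proteases, Stac2 an adaptor of calcium channels, Sarm1 an enzyme of axon degeneration, and Abcg3l3 a relative of the ABCG transporters.

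Values are log2 expression as deposited, and a log2 difference of 1 is a doubling. Array medians were not equal: 6.33 to 6.44 in SKP-derived Schwann cells, 6.82 to 6.87 in nerve Schwann cells and 6.20 to 6.27 in SKPs. The median of all gene differences was -0.45 for SKP-derived minus nerve Schwann cells. It was -0.01 for SKP-derived Schwann cells minus SKPs, and 0.46 for nerve Schwann cells minus SKPs. With cyclic loess, which aligns the arrays to each other at every signal level, these medians were -0.02, -0.03 and -0.03. The SKP arrays are labelled as reanalysed from other deposited samples, so any batch of theirs cannot be told apart from the group. As a check of the labels, 8 of 8 measured Schwann cell markers were higher than in SKPs in SKP-derived Schwann cells, and 8 of 8 in nerve Schwann cells (limma adjusted p under 0.05). Against nerve Schwann cells, 3 of the 8 were called lower in SKP-derived Schwann cells and 0 higher (median -0.83). Of all genes, 42.3% were called lower there. After cyclic loess 1 marker was called lower and 0 higher (median -0.63), against 0.6% and 0.731% of all genes. That marker was Gfap (-2.41, limma adjusted p = 0.0168). Fibroblast markers were present in all groups, and 7 of 10 were lower than in SKPs in each kind of Schwann cell. Endothelial and keratinocyte markers lay below the array median on all 9 arrays (6 and 3 genes measured). Each other marker list had genes above it on some arrays, such as 5 of 8 macrophage markers on SKP array 1. Of 5 perineurial markers, 2 or 3 were above it on each Schwann cell array.

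The SKP arrays played no part in the choice of the 7 genes and were set beside the Schwann cells. Apod, Ecel1, Sparcl1 and Abcg3l3 were high in nerve Schwann cells, and their levels in SKP-derived Schwann cells and SKPs did not differ at an adjusted p under 0.05. Adamts2, Stac2 and Sarm1 fell in SKP-derived Schwann cells relative to SKPs as well. This split follows the calls and not the size of the difference from SKPs, which was -0.57 (SE 0.81) for Apod and -0.54 (SE 0.14) for Sarm1. Set against SKPs, 3 of the 7 genes were called lower in SKP-derived Schwann cells and 0 higher (limma adjusted p under 0.05), where 22.3% of all genes were called lower and 19.3% higher. With cyclic loess the counts were also 3 and 0, against 23.9% and 18.6% of all genes. In nerve Schwann cells against SKPs, 5 were called higher and 1 lower, where 49.7% of all genes were called higher and 14.9% lower. With cyclic loess these were 4 and 1, against 22.4% and 25.6% of all genes. Because the genes were chosen to be high in the nerve arrays and low in the SKP-derived arrays, the first comparison leans low and the second leans high for them. Both use the same SKP arrays. In the comparison that chose them, all 7 were lower in each SKP-derived array than in each nerve array, as were 59.1% of all genes. That comparison is given as a description.

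**Figure D1:**
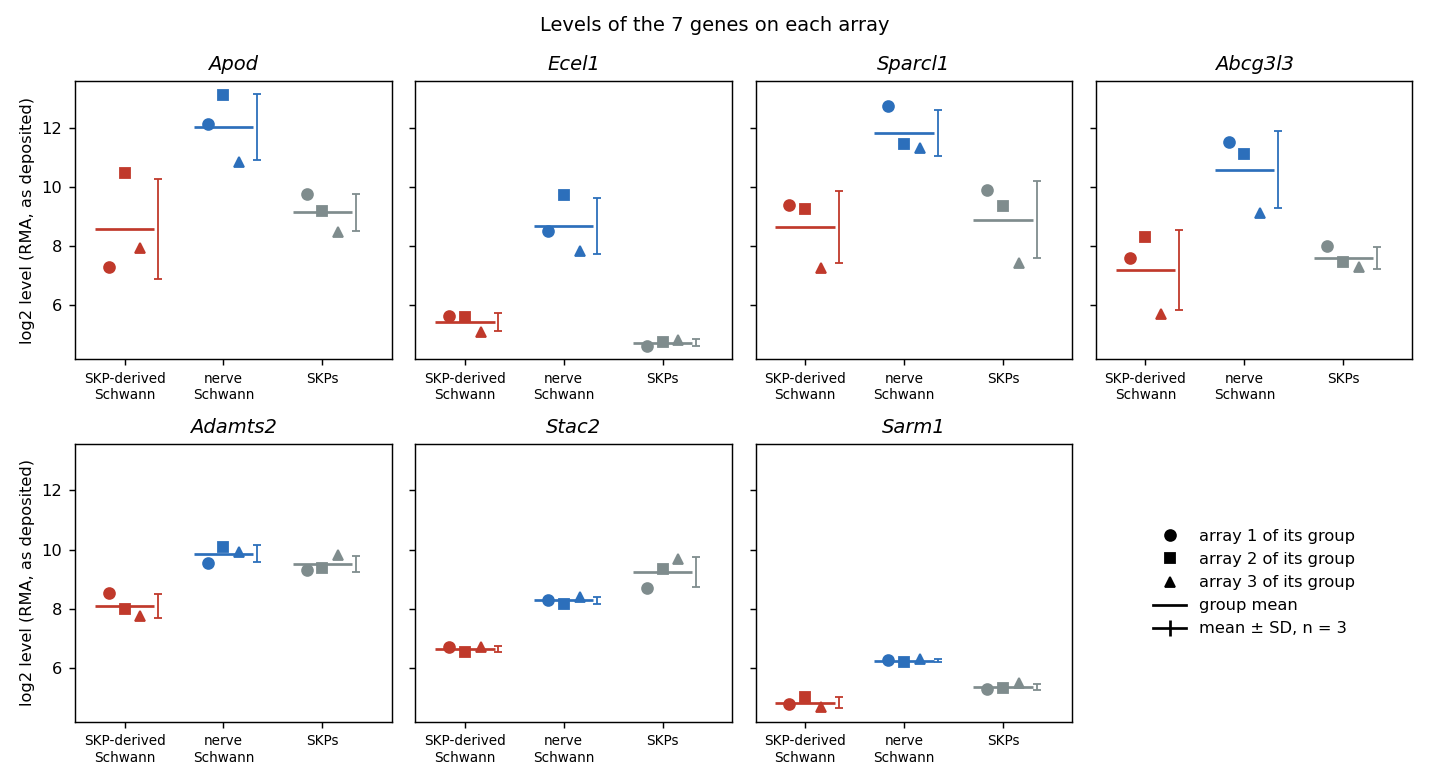
Log2 level (y axis) of each of the 7 genes on the 9 arrays, by group (x axis), with symbols for the arrays of a group, a line at the mean and a bar of 1 SD. For Ecel1 the SKP-derived arrays lie at 5.08 to 5.62, near the SKPs, whereas for Stac2 they lie at 6.53 to 6.69, below both other groups.

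Apod encodes apolipoprotein D, a secreted carrier of small lipids of the lipocalin family, which is made by glia and fibroblasts and increases in injured nerve. Its log2 level was 7.30, 10.48 and 7.93 in SKP-derived Schwann cells, 12.12, 13.10 and 10.85 in nerve Schwann cells, and 9.74, 9.18 and 8.48 in SKPs. SKP-derived array 2 stood far above the other two of its group and lay above all SKP arrays, yet below all nerve arrays. The mean was 8.57 ± 1.68 in SKP-derived and 12.02 ± 1.13 in nerve Schwann cells (SD, n = 3 each), a log2 difference of -3.45 or an 11-fold lower level, the largest fall of all genes (-3.29 after cyclic loess, again the largest). Against SKPs (9.13 ± 0.63), SKP-derived Schwann cells differed by -0.57 (95% interval -2.38 to 1.25, limma adjusted p = 0.601). Without SKP-derived array 1 this difference was 0.070. Nerve Schwann cells exceeded SKPs by 2.89 (SE 0.81, limma adjusted p = 0.0109). As these are bulk cultures, fewer cells that make a transcript and less of it per cell cannot be told apart.

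The mean of 10 fibroblast markers varied alongside Apod within each kind of Schwann cell. The mean log2 level of the 10 markers was 8.28, 10.51 and 9.39 in SKP-derived arrays 1 to 3, and 9.25, 10.06 and 8.73 in nerve arrays 1 to 3. Apod and the marker mean therefore ranked the arrays in the same order within both groups. Single markers differed in this: Pdgfra and Thy1 ranked the arrays as Apod did, but the collagen I chain genes Col1a1 and Col1a2 did not. In SKP-derived Schwann cells Col1a1 (11.94, 11.01 and 11.34) and Col1a2 (11.35, 10.82 and 10.98) were lowest on array 2. In nerve Schwann cells both were highest on array 3 (12.34 and 12.04). Between the groups Apod and the marker mean did not go together: SKP-derived array 2 had more marker signal than any nerve array and less Apod. The SKPs had the most marker signal (12.32, 12.34 and 10.81), with Apod below the nerve arrays. Of the 10 markers, 1 was called lower and 0 higher in SKP-derived than in nerve Schwann cells, with a median difference of -0.16. Of all genes, 42.3% were called lower and 1.33% higher in that comparison, with a median difference of -0.45. After cyclic loess 0 of the 10 markers were called lower and 0 higher, with a median difference of -0.09. The all-gene values were then 0.6% lower, 0.731% higher and a median of -0.02. The Schwann cell marker mean was 11.16, 10.20 and 10.69 in SKP-derived arrays and 11.50, 11.52 and 11.56 in nerve arrays, so SKP-derived array 2 was lowest. The part of cell mixture in the Apod difference was not tested.

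**Figure D2:**
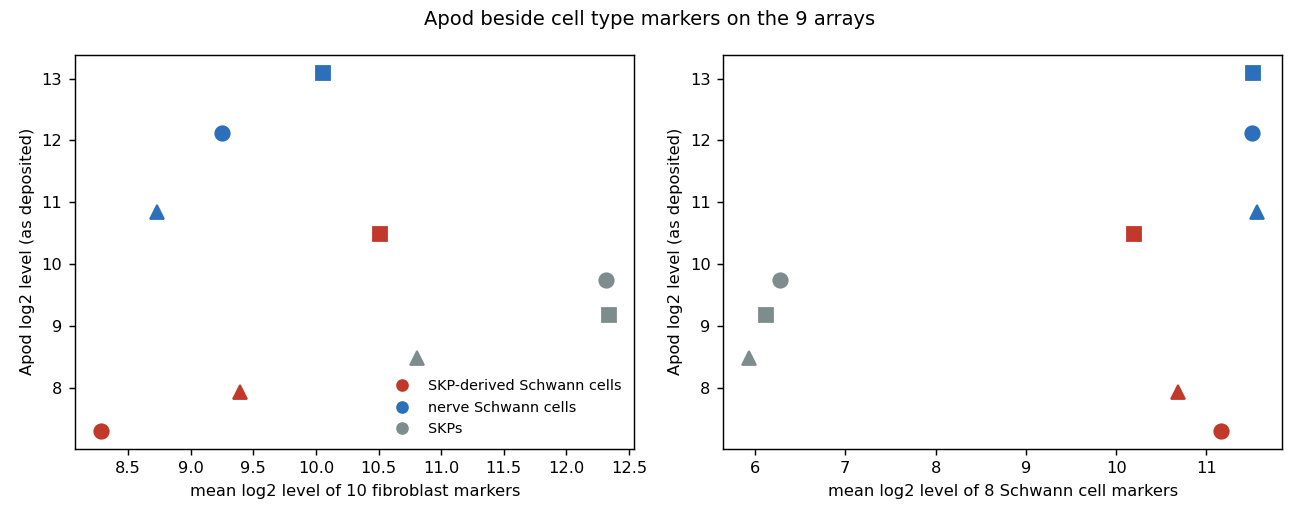
Apod log2 level (y axis) against the mean log2 level of 10 fibroblast markers (left) or 8 Schwann cell markers (right), 1 point per array, with circles, squares and triangles for arrays 1, 2 and 3 of a group. The nerve arrays are above the SKP-derived arrays at like fibroblast marker signal, and SKP-derived array 2 (square) has the highest Apod (10.48) and marker signal (10.51) of its group.

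Ecel1 encodes a membrane peptidase of the M13 family, known from neurons and induced in them by nerve injury. Its log2 level was 5.62, 5.59 and 5.08 in SKP-derived Schwann cells, 8.50, 9.71 and 7.83 in nerve Schwann cells, and 4.60, 4.76 and 4.82 in SKPs. All 3 nerve arrays were high, and the SKP-derived arrays lay just above the SKPs with no overlap. Both of these lower groups were at low signal: the mean exceeded that of 25.4% of genes in SKP-derived Schwann cells and 16.1% in SKPs. The means were 5.43 ± 0.31 in SKP-derived and 8.68 ± 0.95 in nerve Schwann cells, 9.52-fold lower in the SKP-derived cells (log2 difference -3.25, -2.71 after cyclic loess). SKP-derived Schwann cells exceeded SKPs (4.73 ± 0.12) by 0.70, which missed the threshold (95% interval -0.18 to 1.58, limma adjusted p = 0.182). It passed in a fit of only these 2 groups (adjusted p = 0.0319) and without nerve array 2 (adjusted p = 0.0379). Nerve Schwann cells exceeded SKPs by 3.95 (SE 0.39, limma adjusted p = 5.09e-05), the largest nerve difference among the 7 genes.

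Sparcl1 encodes hevin, a secreted matricellular protein of the SPARC family which astrocytes make and which promotes synapse formation. Its log2 level was 9.40, 9.26 and 7.24 in SKP-derived Schwann cells, 12.72, 11.44 and 11.32 in nerve Schwann cells, and 9.88, 9.35 and 7.41 in SKPs. The nerve arrays stood above all others, while the SKP-derived and SKP arrays spanned almost the same range. SKP-derived Schwann cells averaged 8.63 ± 1.21 and nerve Schwann cells 11.83 ± 0.78, a log2 difference of -3.19 (-3.02 after cyclic loess). Against SKPs (8.88 ± 1.30) the difference was -0.25 (95% interval -1.90 to 1.41, limma adjusted p = 0.807), and its sign turned when SKP-derived array 3 (0.45) or SKP array 1 (0.25) was left out. Nerve Schwann cells were higher than SKPs by 2.95 (SE 0.74, limma adjusted p = 0.00629).

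Abcg3l3 is a member of a small cluster of Abcg3-like genes, relatives of the ABCG half-transporters. Its log2 level was 7.60, 8.29 and 5.69 in SKP-derived Schwann cells, 11.53, 11.10 and 9.10 in nerve Schwann cells, and 8.01, 7.46 and 7.29 in SKPs. Nerve array 3 was low for its group but still above all SKP-derived and SKP arrays. The SKP-derived mean was 7.19 ± 1.35 and the nerve mean 10.58 ± 1.30, a log2 difference of -3.38 (-3.08 after cyclic loess). Against SKPs (7.59 ± 0.38), SKP-derived Schwann cells differed by -0.39 (95% interval -2.02 to 1.24, limma adjusted p = 0.691), and by 0.36 without SKP-derived array 3. Nerve Schwann cells were higher than SKPs by 2.99 (SE 0.73, limma adjusted p = 0.00538). How far the probes of this feature also bind transcripts of near-identical Abcg3-like genes is not known here, so its identity is uncertain. Its paralog Abcg3l1 has a feature of its own.

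The promoters of Apod, Ecel1, Sparcl1 and Abcg3l3 are shown because all 4 genes were called higher in nerve Schwann cells than in SKPs under every scaling and none was called between SKP-derived Schwann cells and SKPs. They are RefSeq windows of 300 bases on GRCr8, 250 before to 50 after the annotated start, read 5′ to 3′ on the gene's strand. They lie at chr11:82935970-82936269 (plus strand) for Apod, chr9:95274523-95274822 (minus strand) for Ecel1, chr14:5937234-5937533 (plus strand) for Sparcl1 and chr14:5148681-5148980 (plus strand) for Abcg3l3. Capitals mark exact matches, on either strand, to the SOX-type words ACAAAG and ACAAT and to the AP-1 word TGANTCA.
Apod: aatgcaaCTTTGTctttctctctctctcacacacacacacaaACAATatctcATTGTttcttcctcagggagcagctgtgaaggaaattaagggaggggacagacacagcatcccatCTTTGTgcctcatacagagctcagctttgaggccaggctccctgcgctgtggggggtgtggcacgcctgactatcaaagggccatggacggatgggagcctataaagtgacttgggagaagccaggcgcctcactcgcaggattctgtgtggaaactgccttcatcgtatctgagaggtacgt
Ecel1: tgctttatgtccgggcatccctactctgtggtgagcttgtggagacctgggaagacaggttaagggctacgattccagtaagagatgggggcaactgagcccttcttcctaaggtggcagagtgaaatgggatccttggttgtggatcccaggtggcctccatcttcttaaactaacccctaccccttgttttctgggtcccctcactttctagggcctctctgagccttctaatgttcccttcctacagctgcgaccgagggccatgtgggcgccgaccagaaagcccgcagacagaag
Sparcl1: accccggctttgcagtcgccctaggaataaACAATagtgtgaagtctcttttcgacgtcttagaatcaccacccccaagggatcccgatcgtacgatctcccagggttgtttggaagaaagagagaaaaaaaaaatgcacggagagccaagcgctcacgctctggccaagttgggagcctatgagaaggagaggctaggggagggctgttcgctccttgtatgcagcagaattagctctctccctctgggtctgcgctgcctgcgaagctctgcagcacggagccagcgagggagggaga
Abcg3l3: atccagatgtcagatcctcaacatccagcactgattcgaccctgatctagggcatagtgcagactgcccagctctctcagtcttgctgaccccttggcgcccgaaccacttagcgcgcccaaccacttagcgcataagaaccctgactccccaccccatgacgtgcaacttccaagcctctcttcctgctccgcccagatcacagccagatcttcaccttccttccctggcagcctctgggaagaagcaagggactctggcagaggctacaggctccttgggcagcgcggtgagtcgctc
The Apod window held 2 matches to ACAAAG, a word found in 18.8% of all 33469 promoter windows, and 2 to ACAAT, found in 33.7%. It also held TATAAA, starting 33 bases before the start (14.2% of windows). The Sparcl1 window held 1 match to ACAAT, and the Sarm1 window, not printed, held 1 match to ACAAAG. The Ecel1 and Abcg3l3 windows held none of the 3 marked words, and TGANTCA (7.33% of windows) was in none of the 6 windows read, Adamts2 and Sarm1 included. Ecel1 held 4 matches to the E-box CANNTG, found in 72.1% of windows. A match is a word in the sequence and not a measured binding site.

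Adamts2 encodes the protease that removes the amino-terminal propeptide of fibrillar procollagens, which lets collagen fibrils form. Adamts2 was at 8.54, 7.98 and 7.76 in SKP-derived Schwann cells, 9.53, 10.09 and 9.93 in nerve Schwann cells, and 9.32, 9.36 and 9.81 in SKPs. The SKP-derived arrays lay below every other array, and the nerve and SKP arrays overlapped. The means were 8.09 ± 0.40, 9.85 ± 0.29 and 9.50 ± 0.28 (SD, n = 3 each). SKP-derived Schwann cells were 3.38-fold lower than nerve Schwann cells (log2 difference -1.76, -1.52 after cyclic loess). They were also lower than SKPs by a log2 difference of -1.40 (SE 0.24, limma adjusted p = 0.00135). Nerve Schwann cells differed from SKPs by 0.35 (95% interval -0.18 to 0.89, limma adjusted p = 0.216), a value of 0.10 after cyclic loess and -0.25 after median centring.

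Stac2 encodes an adaptor with SH3 and cysteine-rich domains that binds voltage-gated L-type calcium channels. Stac2 levels were 6.69, 6.53 and 6.69 in SKP-derived Schwann cells, 8.30, 8.16 and 8.38 in nerve Schwann cells, and 8.70, 9.33 and 9.68 in SKPs. The 3 groups did not overlap, with SKPs highest and SKP-derived Schwann cells lowest, and arrays within each Schwann cell group were close together. SKP-derived Schwann cells averaged 6.64 ± 0.10 and nerve Schwann cells 8.28 ± 0.11, a log2 difference of -1.65 (-1.31 after cyclic loess). Against SKPs (9.24 ± 0.50) the SKP-derived cells fell by 2.60, a 6.08-fold lower level (SE 0.22, limma adjusted p = 2.82e-05), the largest change from SKPs among the 7 genes. Nerve Schwann cells were lower than SKPs too, by a log2 difference of -0.96 (SE 0.22, limma adjusted p = 0.00428; -1.26 after cyclic loess).

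Sarm1 encodes a TIR-domain enzyme that consumes NAD and drives the breakdown of injured axons. Sarm1 levels were low on all arrays, at 4.77, 5.02 and 4.66 in SKP-derived Schwann cells, 6.25, 6.20 and 6.28 in nerve Schwann cells, and 5.28, 5.30 and 5.48 in SKPs. The groups did not overlap and the spread within each was small. SKP-derived Schwann cells averaged 4.81 ± 0.19 and nerve Schwann cells 6.24 ± 0.04, a log2 difference of -1.43 that was -0.78 after cyclic loess. When all genes were put in 4 equal bins by mean level, Sarm1 was in the lowest bin. The median difference between these groups was -0.66 as deposited and -0.05 after cyclic loess in that bin, against -0.23 and -0.04 in the highest. Against SKPs (5.35 ± 0.11), SKP-derived Schwann cells were lower by a log2 difference of -0.54 (SE 0.14, limma adjusted p = 0.0113), and by -0.65 after cyclic loess. Nerve Schwann cells were higher than SKPs by 0.89 as deposited (SE 0.14, limma adjusted p = 0.000473). That call ended under each other scaling: the difference was 0.28 after median centring (adjusted p = 0.107), 0.17 after quantile normalisation (0.271) and 0.13 after cyclic loess (0.38).

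**Figure D3:**
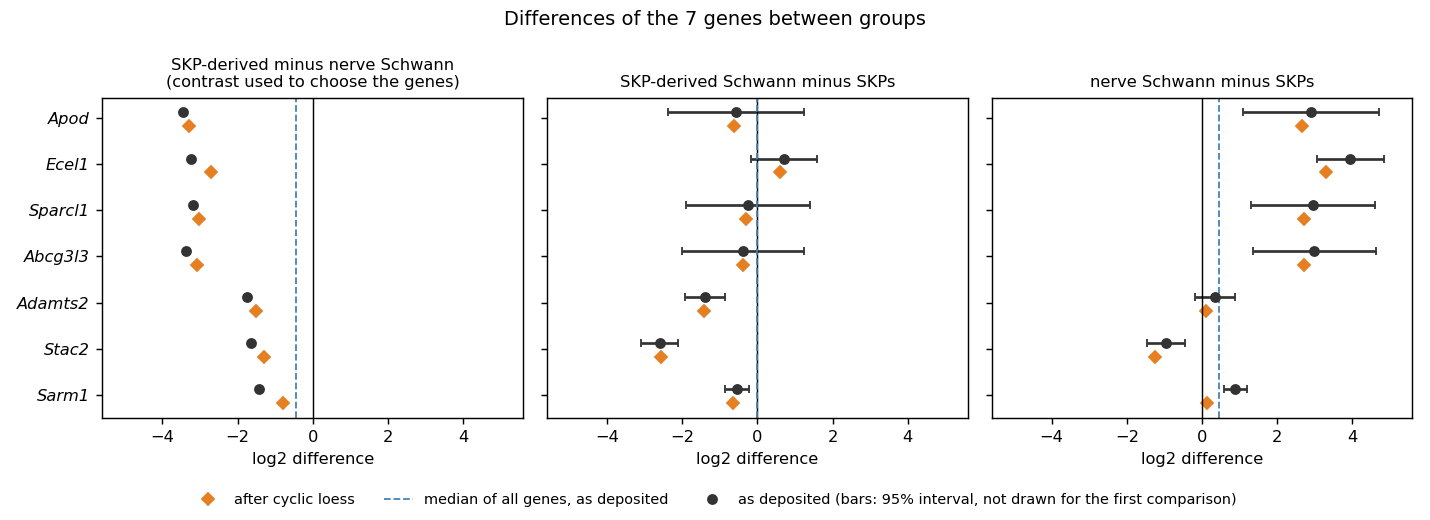
Log2 differences (x axis) of the 7 genes for the 3 comparisons, as deposited (circles) and after cyclic loess (diamonds), with 95% intervals where the comparison did not choose the genes and a dashed line at the median of all genes. Stac2 has the largest fall from SKPs (-2.60), and Sarm1 in nerve Schwann cells moves from 0.89 to 0.13 with the scaling.

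The order of the groups thus differed between genes. For Apod, Sparcl1 and Abcg3l3 nerve Schwann cells were highest, and SKP-derived Schwann cells and SKPs could not be ordered beyond their spread. Ecel1 had the same order, with SKP-derived arrays above SKP arrays but short of the threshold. For Adamts2 SKP-derived Schwann cells were lowest, and nerve Schwann cells and SKPs could not be ordered. Stac2 ran from SKP-derived Schwann cells through nerve Schwann cells to SKPs, each step larger than the spread. For Sarm1 SKP-derived Schwann cells were lowest. Its mean in nerve Schwann cells was above that in SKPs under every scaling, but among the scalings this was called only as deposited. Of all genes, 25.8% had every SKP-derived array below every SKP array, as did Adamts2, Stac2 and Sarm1. Another 22.1% had every SKP-derived array above every SKP array, as did Ecel1. Nerve arrays all lay above the SKP arrays for Apod, Ecel1, Sparcl1, Abcg3l3 and Sarm1, 5 of the 7 genes and 55.8% of all genes. They all lay below for Stac2, 1 of the 7 and 17.8% of all genes.

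The rule had no numeric limit. By size of fall from nerve Schwann cells the genes ranked 1 (Apod), 2 (Abcg3l3), 3 (Ecel1), 4 (Sparcl1), 43 (Adamts2), 64 (Stac2) and 110 (Sarm1) of 14506, and 1, 2, 5, 3, 31, 55 and 274 after cyclic loess. The tight junction gene Cldn11, which ranked 5, fell by 3.13 and is not among the 7. The spread within groups differed widely among them: the pooled SD was 1.23 for Apod, 1.12 for Sparcl1, 1.10 for Abcg3l3, 0.58 for Ecel1, 0.33 for Adamts2, 0.30 for Stac2 and 0.13 for Sarm1. The first 3 were among the most variable of all genes within groups, above the pooled SD of at least 99.2% of genes.

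For each of the 7 genes, the 2 genes outside the 7 with the most similar profile over the 9 arrays were found from the root mean square difference of log2 levels, each gene centred on its own mean. Ecel1 was nearest to Gfap, a glial intermediate filament gene (0.38), whose levels were 6.88, 6.26 and 5.82 in SKP-derived Schwann cells, 9.26, 9.51 and 8.77 in nerve Schwann cells, and 4.92, 5.52 and 5.58 in SKPs. Its next was Mab21l1 (0.56). Outside the 7, Apod was nearest to the transcription factor gene Ebf2 (0.87) and to the complement gene C7 (0.90), which was 6.58, 9.89 and 5.61 in nerve arrays and at most 5.21 elsewhere. Stac2 lay near Vsir (0.29) and Vwa5a (0.32), and Adamts2 near Nfil3, a transcription factor gene, and Qsox1 (0.31 each). Sparcl1 came nearest to Trim80 (0.88) and Mterf2 (0.90), and Abcg3l3 to the calcium channel gene Cacna1a (0.91) and to B3gnt5 (0.93), which are loose fits. Sarm1 was nearest to the olfactory receptor gene Or10al7 (0.13) and to Hyal6 (0.14), which ranked 25 and 106 after cyclic loess. Among the 7 genes themselves, Adamts2 and Sarm1 were closest (0.44), then Adamts2 and Stac2 (0.66), and Sparcl1 and Abcg3l3 (0.69). Apod and Abcg3l3 followed (0.79), so that Apod, Sparcl1 and Abcg3l3 each lay closer to another of the 7 than to any gene outside them. The measure keeps the size of differences and includes the arrays on which the 7 genes were chosen. Apod, Sparcl1 and Abcg3l3 ranked 1, 4 and 2 by size of fall, so their closeness follows in part from the choice.

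**Figure D4:**
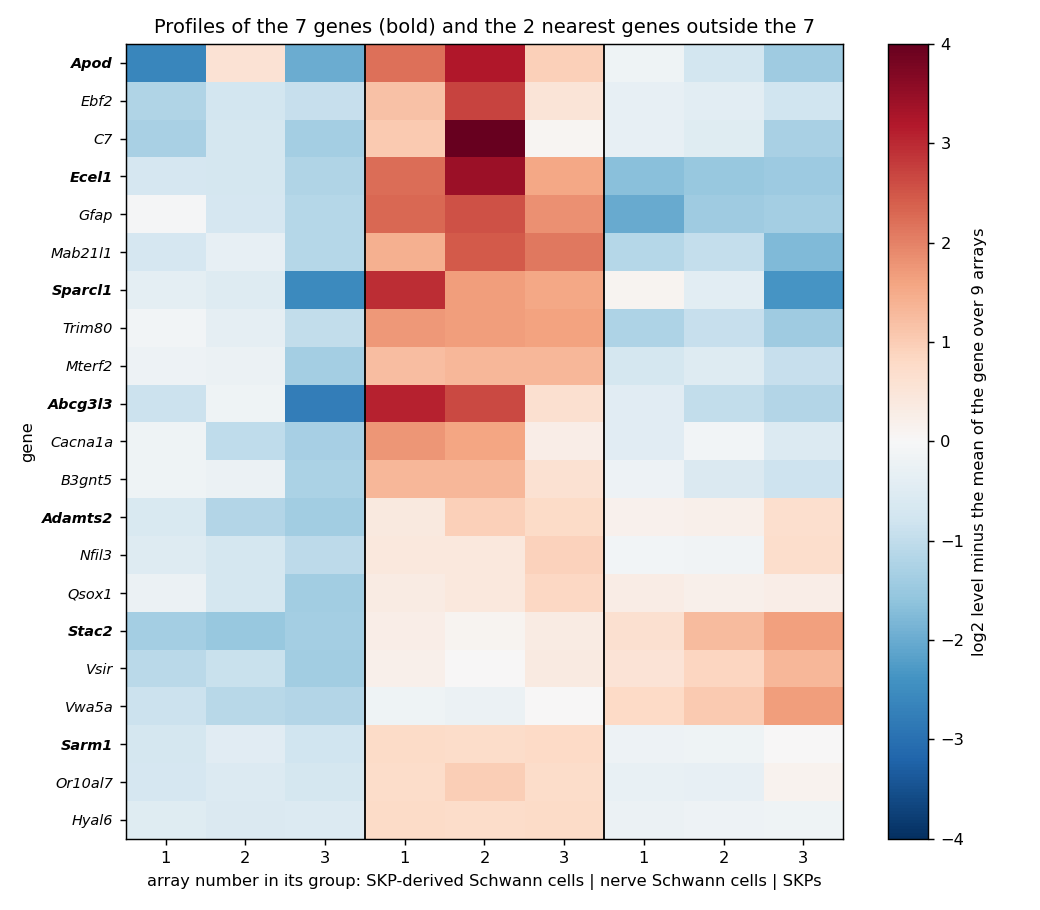
Log2 level minus the mean of the gene over 9 arrays (colour) for the 7 genes (bold) and the 2 genes outside the 7 nearest to each (rows), by array (columns). All nerve arrays are above the gene mean for all 7 genes, and all SKP arrays are above it for Adamts2 and Stac2.

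Relatives and partners of the 7 genes were read from 9 fixed lists, leaving the 7 genes out, and tested between SKP-derived and nerve Schwann cells. In that comparison 42.3% of all genes were called lower and 1.33% higher as deposited, and 0.6% lower and 0.731% higher after cyclic loess. Most lower calls in the lists therefore have to be read against this background. Over all 9 lists 2 genes were called lower after cyclic loess, Mmel1 and Qprt, and 0 higher.

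Of 19 lipocalin, apolipoprotein and lipoprotein receptor genes, 9 were lower and 0 higher as deposited (median -0.60), and 0 and 0 after cyclic loess (median -0.10). Rbp4, the retinol carrier of plasma, differed by -1.17 (limma adjusted p = 0.00226; -0.54 and 0.0941 after cyclic loess) and Apoa2 by -0.87 (adjusted p = 0.0054; -0.36 and 0.25). Bsg, which encodes a receptor of apolipoprotein D, was at 12.14, 10.62 and 12.19 in SKP-derived and 12.30, 12.26 and 12.23 in nerve Schwann cells, and was not called (limma adjusted p = 0.186). Apoe, a major lipid carrier of glia, did not differ at the threshold between the Schwann cells (-0.51, adjusted p = 0.189). It fell in SKP-derived Schwann cells relative to SKPs by 2.95 (SE 0.30, limma adjusted p = 7.58e-05), where Apod was not called.

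Of 8 M13 peptidase and endothelin genes, 5 were lower as deposited (median -0.57) and 1 after cyclic loess (median -0.09). That gene was Mmel1, a soluble relative of neprilysin, at 4.46, 4.30 and 4.64 in SKP-derived and 5.87, 6.08 and 5.90 in nerve Schwann cells (-1.49, limma adjusted p = 0.00192; -0.82 and 0.0495 after cyclic loess). Mme, which encodes neprilysin itself, differed by 0.23 between the Schwann cells (adjusted p = 0.799), and fell by 3.37 in SKP-derived Schwann cells relative to SKPs (SE 0.67, adjusted p = 0.00326). Ece1, the endothelin-converting enzyme, differed by -0.58 from nerve Schwann cells (adjusted p = 0.0133; -0.28 and 0.311 after cyclic loess) and fell by 1.08 relative to SKPs (SE 0.15, adjusted p = 0.000393).

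Of 10 SPARC family genes and partners of hevin, 3 were lower and 1 higher as deposited (median -0.34), and 0 and 0 after cyclic loess (median -0.02). Sparc, the closest relative, stayed high in all groups, at 13.76, 13.30 and 13.61 in SKP-derived Schwann cells, 13.63, 13.46 and 13.45 in nerve Schwann cells, and 13.46, 13.16 and 12.31 in SKPs. It differed by 0.04 between the Schwann cells (limma adjusted p = 0.901). Smoc2, a calcium-binding matricellular gene, was the 1 called higher (1.22, limma adjusted p = 0.0431). That call ended without any 1 of the 6 Schwann cell arrays (adjusted p up to 0.13) and after cyclic loess (0.107).

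Of 6 ABCG transporter genes, 4 were lower as deposited (median -0.70) and 0 after cyclic loess (median -0.04). Abcg4, a sterol transporter, differed by -0.89 (limma adjusted p = 0.00467; -0.47 and 0.156 after cyclic loess) and Abcg2, a drug and urate exporter, by -0.74 (0.00374; -0.10 and 0.684). Abcg3l1 was at 6.04, 6.09 and 6.49 in SKP-derived Schwann cells and 6.65, 6.56 and 6.54 in nerve Schwann cells, a far smaller gap than for Abcg3l3.

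Of 10 ADAMTS protease genes, 3 were lower as deposited (median -0.47) and 0 after cyclic loess (median -0.06). Adamts3 and Adamts14, which like Adamts2 process procollagen, did not share its pattern. Adamts3 rose by 2.99 in SKP-derived Schwann cells relative to SKPs (SE 0.30, limma adjusted p = 7.16e-05), where Adamts2 fell. Its levels were 7.41, 7.43 and 8.21 in SKP-derived Schwann cells, 8.40, 7.81 and 7.81 in nerve Schwann cells, and 4.66, 4.23 and 5.19 in SKPs. A second Adamts3 feature gave 2.33. Adamts14 differed from nerve Schwann cells by -0.71 (limma adjusted p = 0.00833; -0.13 and 0.652 after cyclic loess) and from SKPs by -0.05 (adjusted p = 0.827). Of 13 procollagen processing and fibrillar collagen genes, 3 were lower than in nerve Schwann cells as deposited (median -0.70) and 0 after cyclic loess (median -0.31). Relative to SKPs, 5 of the 13 fell and 1 rose in SKP-derived Schwann cells. The collagen I chain genes Col1a1 and Col1a2, whose products Adamts2 trims, are also among the 10 fibroblast markers, of which 7 fell relative to SKPs. Col1a1 fell by 1.53 (SE 0.34, adjusted p = 0.0056) and Col1a2 fell by 1.86 (SE 0.23, adjusted p = 0.000222). In nerve Schwann cells against SKPs, Col1a2 differed by -0.95 (adjusted p = 0.00522) and Col1a1 by -0.77 (adjusted p = 0.0692), where Adamts2 differed by 0.35. Bmp1, the carboxy-terminal procollagen protease, differed from SKPs by 0.02 in SKP-derived Schwann cells (adjusted p = 0.968).

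Of 19 genes of STAC adaptors and calcium channels, 13 were lower as deposited (median -0.70) and 0 after cyclic loess (median -0.14). Cacna1a, the pore subunit of P/Q-type channels, had the largest called difference, with 8.29, 7.44 and 7.12 in SKP-derived and 10.20, 10.03 and 8.72 in nerve Schwann cells (-2.04, limma adjusted p = 0.0054; -1.73 and 0.0841 after cyclic loess). Cacna1c, an L-type pore subunit of the kind that STAC adaptors bind, differed by 0.39 (adjusted p = 0.518). Stac3, the adaptor of skeletal muscle, differed by -0.60 (adjusted p = 0.0352), and by 0.07 after cyclic loess (0.885). Skeletal muscle markers (5 genes) had means of 6.06 to 6.29 in SKP-derived Schwann cells, 6.81 to 6.90 in nerve Schwann cells and 5.98 to 6.13 in SKPs. With cyclic loess these were 6.29 to 6.45, 6.46 to 6.54 and 6.24 to 6.39, and the 5 lower calls between the Schwann cells became 0.

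Of 14 NAD metabolism genes, 4 were lower as deposited (median -0.28) and 1 after cyclic loess (median 0.02). That gene was Qprt, an enzyme of NAD synthesis from quinolinate, at 7.87, 6.96 and 7.12 in SKP-derived Schwann cells, 8.93, 9.06 and 9.54 in nerve Schwann cells, and 5.57, 6.21 and 5.70 in SKPs. The Schwann cells differed by -1.85 (limma adjusted p = 0.00235; -1.46 and 0.0428 after cyclic loess), and SKP-derived Schwann cells exceeded SKPs by 1.49 (SE 0.27, adjusted p = 0.00211). Nmnat2, the NAD-synthesising enzyme that holds SARM1 in check in axons, differed by -0.12 between the Schwann cells (adjusted p = 0.679) and rose by 2.13 relative to SKPs (SE 0.23, adjusted p = 9.94e-05), where Sarm1 fell. Nampt, the enzyme that salvages nicotinamide, fell by 1.05 relative to SKPs (SE 0.25, adjusted p = 0.00875). Of 13 genes of axon degeneration kinases and TIR adaptors, 3 were lower than in nerve Schwann cells as deposited (median -0.28) and 0 after cyclic loess (median 0.00). Map3k12, the kinase DLK of the axon injury response, differed by -0.77 (limma adjusted p = 0.0184; -0.48 and 0.207 after cyclic loess).

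**Figure D5:**
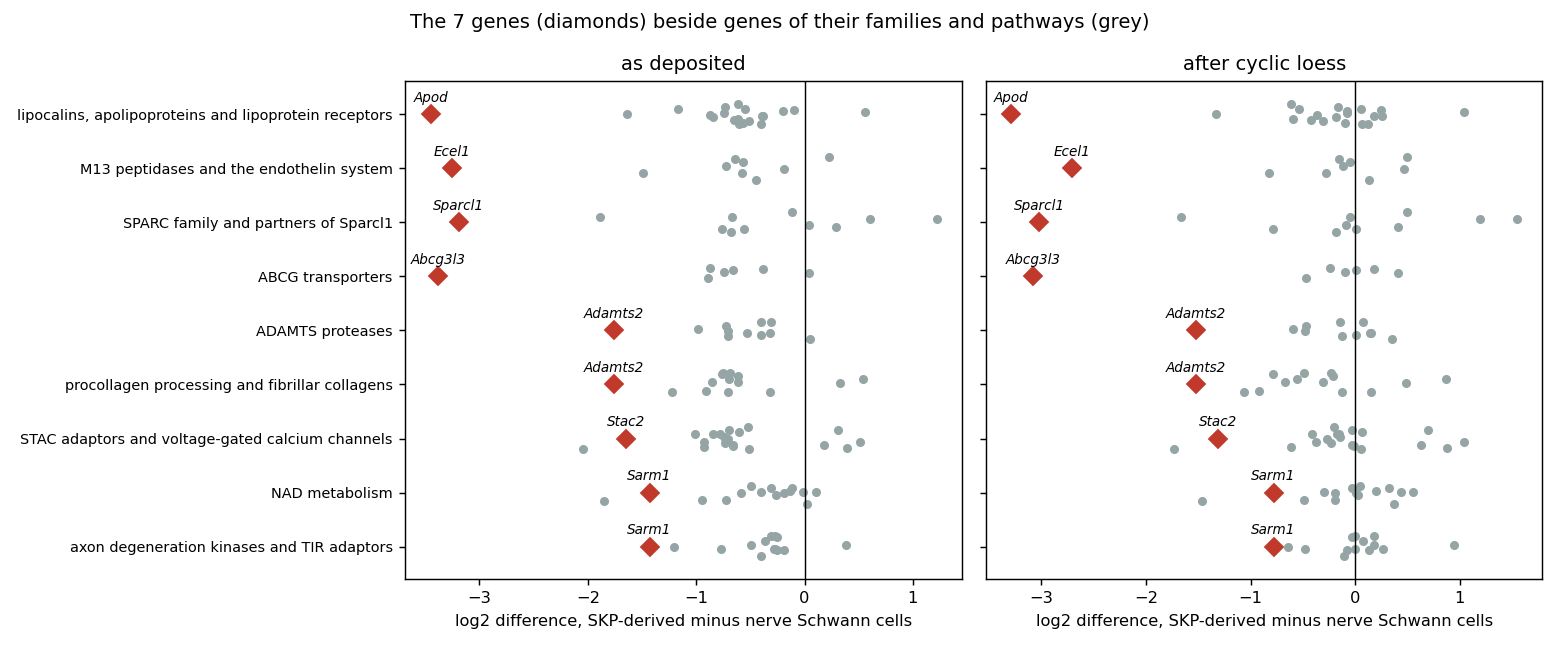
Log2 differences between SKP-derived and nerve Schwann cells (x axis) of the 7 genes (diamonds) and of the other genes in 9 lists (grey, rows), as deposited (left) and after cyclic loess (right). In each list but 2 the chosen gene lies below all other genes, while Cacna1a (-2.04) lies below Stac2 and Qprt (-1.85) below Sarm1. The 7 genes were chosen for a fall in this comparison, so their low place follows in large part from the choice.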

How the data were processed

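RNA of 9 cultured samples was measured on Affymetrix Rat Gene 1.0 ST arrays. The deposited values are log2 levels of 29214 features. Per the submitters' processing notes, the authors used RMA and Affymetrix Expression Console. Not given in the sources used here: versions, genome build, and whether all arrays were normalised together. No probe-level signal or detection call entered the analysis. The platform annotation gives 1 gene symbol to 15310 features, several to 323 and none to 13581. Only the first were used, and the feature with the highest mean stood for a gene with several.

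A linear model of group means was fitted to all 9 arrays over 14506 genes with limma 3.58.1 in R 4.3.3 (lmFit, eBayes). Calls were made at 0.05 on p-values adjusted over all these genes by the Benjamini-Hochberg method. The fit was tested on simulated data. The number of arrays limits the precision. The p-values weigh a group difference against the spread between these samples within groups, pooled over the 3 groups and drawn by eBayes toward that of all genes.

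The 7 genes, the lists and the rule for named genes were chosen with earlier results of these data known. Named were the 7 genes, fixed partners, the up to 4 called genes of a list with the largest difference, and the 2 nearest profiles outside the 7 per gene. The alternatives were 3 other scalings, a filter on low levels, all features or their mean, a fit of 2 groups, other variances, array weights, a replicate block, stricter thresholds and leaving out each array. Same-numbered arrays did not deviate together in every pair (correlations of -0.124 to 0.289), so the numbers were not taken as pairs. Most of these correlations were positive, and arrays with different numbers gave -0.265 to 0.180. Promoters come from RefSeq (GRCr8), with 6 of 7 genes matched.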

Additional observations from a re-analysis of the deposited data

Results flagged for a closer look

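Adamts2 and Sarm1 lay on opposite sides of the SKP mean in the 2 kinds of Schwann cell, in every array as deposited. By group mean, though not in every array, so did Apod (-0.57 in SKP-derived, 2.89 in nerve), Sparcl1 (-0.25, 2.95) and Abcg3l3 (-0.39, 2.99). The median difference of all genes from SKPs was -0.01 in SKP-derived and 0.46 in nerve Schwann cells. The share of all genes with this pattern was not counted. Adamts2 differed from SKPs by -1.40 in SKP-derived Schwann cells (3 of 3 arrays below) and by 0.35 in nerve Schwann cells (3 of 3 above), which differed from each other by -1.76. Sarm1 differed from SKPs by -0.54 in SKP-derived and by 0.89 in nerve Schwann cells, which differed by -1.43. After cyclic loess the 3 SKP-derived arrays were still below for both genes, and 2 of 3 nerve arrays were above for Adamts2 and 3 of 3 for Sarm1. The nerve difference of Adamts2 from SKPs was not called as deposited (limma adjusted p = 0.216) and was -0.25 after median centring. Both kinds of Schwann cell were then below the SKPs. For Sarm1 it was 0.28 after median centring, 0.17 after quantile normalisation and 0.13 after cyclic loess, and was not called there. The difference between the Schwann cells was not tested, because the genes were chosen on it. They were chosen as high in nerve and low in SKP-derived arrays, so the pattern follows in part from that choice.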

How the results depend on the processing

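All 7 genes stayed lower in SKP-derived than in nerve Schwann cells under every alternative in which they were fitted, in the comparison that chose them (Ecel1 and Sarm1 were not fitted without the genes below the median level). The number of genes called between these groups depended on the scaling: 6333 as deposited (3.05% higher), 716 after median centring (67.3% higher), 193 after cyclic loess (54.9% higher) and 240 after quantile normalisation (54.2% higher). It was 600 without the genes below the median level, 806 with a 2-fold minimum and 2818 at an adjusted p under 0.01. It ranged from 3755 to 7270 with 1 array left out, and was 3982, 3755 and 4005 without nerve array 1, 2 or 3. Between SKP-derived Schwann cells and SKPs it was 6038 (46.5% higher; 34.7% after median centring), 2980 with a 2-fold minimum and 3855 at 0.01 (4865 to 5939 with 1 array left out). Between nerve Schwann cells and SKPs it was 9369 (77.0% higher; 46.6% after cyclic loess, 46.3% after quantile normalisation and 35.0% after median centring), 4203 without genes below the median level and 4174 with a 2-fold minimum (8016 to 9783 with 1 array left out).

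Among the 7 genes, the count called higher in SKP-derived Schwann cells than in SKPs was 0, and 1 (Ecel1) in the fit of only 2 groups; it was 0 to 1 with 1 array left out. The count called higher in nerve Schwann cells than in SKPs was 5, and 3 without genes below the median level, where Ecel1 and Sarm1 were not tested. The count called lower there was 1, and 0 with a 2-fold minimum. Directions turned for differences that were not called: Adamts2 in nerve Schwann cells against SKPs was -0.25 after median centring. In SKP-derived Schwann cells against SKPs, with 1 array left out, Apod ranged from -1.52 to 0.070 (without SKP-derived array 1), Sparcl1 from -0.98 to 0.45 (without SKP-derived array 3; 0.25 without SKP array 1) and Abcg3l3 from -0.94 to 0.36 (without SKP-derived array 3). The replicate block gave 6169, 5898 and 9294 called genes in the 3 comparisons and changed no call of the 7 genes.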

Other observations

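Abcg3l3 and Sparcl1 lie on the same chromosome (14 in RefSeq's GRCr8), with 15 protein-coding genes between them, and array 3 was the lowest of its group for both genes in all 3 groups. The same held for 5.6% of all genes. Of the 8 measured genes between them, it held for 2, the secreted phosphoprotein gene Spp1 and the bone matrix gene Mepe. Spp1 was at 6.60, 6.80 and 5.94 in SKP-derived Schwann cells, 7.94, 8.14 and 7.23 in nerve Schwann cells, and 13.65, 13.45 and 12.60 in SKPs. This pattern was noticed after the values were seen, and equal numbers in the labels do not tie arrays of different groups to each other. Array 3 also had the lowest median over all features in each group, at 6.33 in SKP-derived Schwann cells, 6.82 in nerve Schwann cells and 6.20 in SKPs. The part of that offset in the pattern was not tested.

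Clu and Thbs1, which belong to the lists of Apod and Sparcl1 and were picked here after their values were seen, had the largest differences among listed genes that were not called. Clu, a secreted chaperone also known as apolipoprotein J, averaged 6.05 in SKP-derived and 7.69 in nerve Schwann cells (-1.64, -1.33 after cyclic loess). Thbs1, the matricellular protein thrombospondin, averaged 7.68 in SKP-derived and 9.57 in nerve Schwann cells (-1.89, -1.67 after cyclic loess).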
